A study of Mus musculus with 2 samples.

Results

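The 10 genes described here are those of prostaglandin synthesis, inactivation and reception, together with the inducible nitric oxide synthase gene: Nos2, Ptgs1, Ptgs2, Ptges, Ptges2, Ptgis, Ptgds, Hpgd, Ptger2 and Ptger4. They were taken by name, through the RefSeq transcripts that the scanner files give for each spot, and are 10 of 20657 genes with a probe. Together they had 12 probes on 22 spots, and 8 of the 10 had a single probe. The A-CEBP sample came from a stable ATDC5 line with a doxycycline-inducible A-CEBP transgene, a dominant-negative protein that binds C/EBP transcription factors and keeps them off DNA, and the GFP sample from a stable ATDC5 line with an inducible GFP transgene. ATDC5 is a mouse cell line that forms cartilage-like nodules in culture. Both lines received doxycycline at 2 µg/mL for 2 days and were then differentiated with insulin, transferrin and selenite (ITS) for 3 weeks, so doxycycline and ITS were common to both samples. Each group was 1 sample on 1 array, so differences could not be checked against replicates and have no p-value. Whether a line was 1 clone or a pool, and whether doxycycline was kept on during differentiation, is not stated in the labels, and neither transgene had a named probe, so their expression was not checked.

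Prostaglandins are made when a phospholipase frees arachidonic acid, a cyclooxygenase (Ptgs1 or Ptgs2) turns it into an unstable endoperoxide, and a terminal synthase turns that into prostaglandin E, prostacyclin, prostaglandin D or another product. Ptgs2, Ptges and Nos2 are known in chondrocytes as genes induced by interleukin-1 and related signals, and their products, prostaglandin E and nitric oxide, are mediators of inflamed cartilage. Prostaglandin E acts on chondrocytes partly through the EP2 and EP4 receptors (Ptger2 and Ptger4), which raise cAMP, and Hpgd encodes the dehydrogenase that inactivates it.

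Total RNA was labelled with Cy3 and hybridised to 1-colour Agilent arrays, both on 1 slide and from 1 scan. By the scanner software's own mark, 34418 (58.0%) of the 59305 spots that are not controls stood well above background on the A-CEBP array and 32369 (54.6%) on the GFP array, and none was saturated. The cartilage genes Col2a1, Acan and Sox9 were well above background on both arrays, and 14 of 15 chondrocyte markers were measured on both, with 4 higher by 2-fold or more in the A-CEBP sample (Ihh by 2.94-fold, Hapln1 by 2.68-fold, Acan by 2.45-fold and Cnmd by 2.02-fold, the last under 2-fold in 3 alternatives) and none lower by that size. Over all 13860 genes measured on both arrays, 1.25% were higher by 2-fold or more and 1.71% lower by that size. Below, a level is log2 of the processed signal minus the array's 75th percentile, in log2 units, and a difference is A-CEBP minus GFP. Levels of different probes are not comparable with each other. The ± beside a difference is the scanner software's error of the 2 readings, and the difference between probes of a gene had an SD of 0.19 (root mean square, 3601 genes). Both cover the measurement on these arrays, not the spread between cultures, and the number of arrays limits the precision.

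Nos2 and Ptger2 were far lower in the A-CEBP sample, Ptgis was higher and Hpgd somewhat lower, while both cyclooxygenase genes and both prostaglandin E synthase genes were close to their GFP levels. Of the 8 genes measured on both arrays, 1 (Nos2) was at least 2-fold lower, a size reached by 1.71% of all 13860 genes measured on both. Another 1 of the 8 (Ptgis) was at least 2-fold higher, against 1.25% of all genes. A further 5 differed by less than 1.5-fold, as did 91.5% of all genes, and the median over the 8 was -0.14, beside 0.04 over all genes. Ptger2 was seen in the GFP sample only, and Ptger4 in neither. With scaling on spike-in control spots, which moved the median of all genes by 0.22, the array-wide counts became 174 lower and 339 higher, in place of 237 and 173. RNA here is from whole cultures, in which fewer expressing cells and less RNA per cell cannot be told apart.

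**Figure D1:**
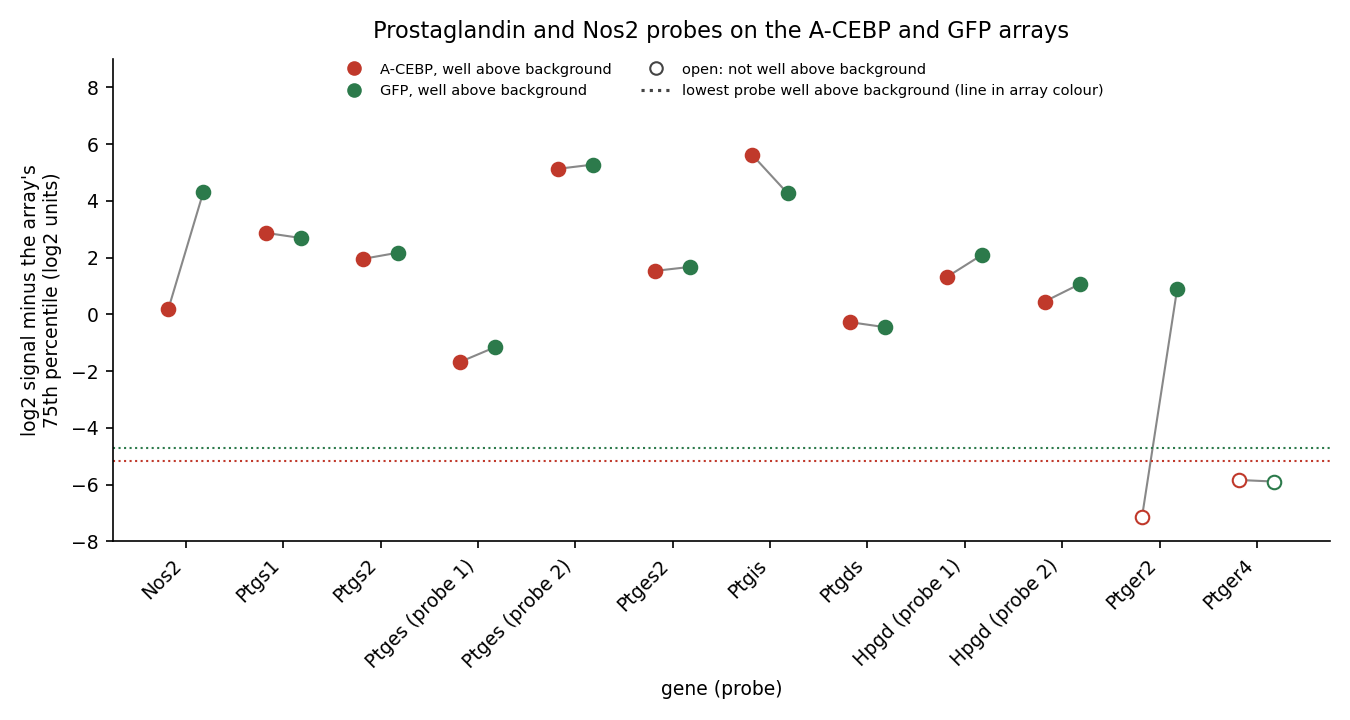
Level of each probe on the A-CEBP array (left point of each pair) and the GFP array (right point), as log2 signal minus the array's 75th percentile. Open points were not well above background, and dotted lines mark the lowest probe well above background on each array. Nos2 and Ptger2 drop steeply in the A-CEBP sample, Ptgis lies higher there, and most other pairs are nearly level.

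Nos2 encodes the inducible nitric oxide synthase, which makes nitric oxide from arginine. Its probe was printed in 2 spots, which read 1145 and 906 intensity units on the A-CEBP array, against 17450 and 16978 on the GFP array. Both A-CEBP spots lay far below both GFP spots. The mean level was 0.17 in the A-CEBP sample and 4.31 in the GFP sample, a difference of -4.13 ± 0.20, or 17.6-fold lower. The difference was -3.98 at one spot and -4.28 at the other (SD over spots 0.21, n = 2 spots of 1 array each). Among the 13860 genes measured on both arrays, Nos2 had the 13th most negative difference. The endothelial enzyme gene Nos3 differed by -0.06, a sign that turned under 2 alternatives. The neuronal Nos1 passed the background mark on the A-CEBP array alone. Its level was -4.42 in the A-CEBP sample and -4.58 in the GFP sample, both near background, so no fold is given.

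Within 2 rows and columns of the Nos2 spots, the spots well above background on both arrays had a median difference of 0.11 (9 spots, between -0.55 and 0.79) around one Nos2 spot and -0.08 (12 spots, between -0.78 and 0.43) around the other. Nos2 is also a gene of activated macrophages. Of 15 leukocyte markers with a probe, 7 were measured on both arrays and 8 on neither. Of the 7, 5 were lower and 2 higher in the A-CEBP sample, with a median difference of -0.36. The 1 at least 2-fold apart was S100a8, a neutrophil and macrophage gene, 3.39-fold lower. Over all genes, 1.71% were lower by 2-fold or more. S100a8 was dim, at -3.86 in the A-CEBP sample, and its difference of -1.76 lay between -1.81 and -1.14 over 10 alternatives. As multiples of the 75th percentile, the linear levels of the 7 markers summed to 29.2 (A-CEBP) and 26.3 (GFP). Without the brightest probe, that of Itgam, they summed to 3.74 in the A-CEBP sample and 4.60 in the GFP sample. Such a sum weights each marker by the brightness of its probe. Itgam differed by 0.23, or by -0.17 with the mean of all its probes. Of the defining markers Ptprc, Itgam and Adgre1, Itgam was well above background on both arrays, at 4.67 (A-CEBP) and 4.44 (GFP). Ptprc and Adgre1 were not well above background on either array. The part of this marker list in the Nos2 difference was not tested.

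Among genes of nitric oxide synthesis, regulation and signalling, arginine handling and tetrahydrobiopterin, 2 of 19 with a level on both arrays were lower by 2-fold or more and none was higher by that size, with a median of 0.02 beside 0.04 for all genes. These 2 handle arginine. Slc7a2, which encodes a transporter that brings arginine into cells, was at -2.60 in the A-CEBP sample and -0.56 in the GFP sample, 4.10-fold lower. Arg2, the mitochondrial arginase, was at -4.82 in the A-CEBP sample and -2.60 in the GFP sample, 4.67-fold lower, or a difference of -1.13 in place of -2.22 with normexp background. Its A-CEBP level lay close to the lowest of any probe past the background mark. Gch1, the first enzyme of tetrahydrobiopterin synthesis, differed by -0.15, and Ass1, which helps to remake arginine, by -0.03, and both signs turned with spike-in scaling. Arg1 was not well above background on either array. The other arginine transporter measured, Slc7a1, differed by 0.10 (named after its value was seen).

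The cyclooxygenase genes stayed near their GFP levels. Ptgs2, the inducible enzyme, was printed in 10 spots, of which 8 were kept and 2 carried an outlier mark on the A-CEBP array. The 8 spots read 3365 (lowest), 3504 (median) and 3657 (highest) intensity units in the A-CEBP sample, against 3586 (lowest), 4002 (median) and 4115 (highest) in the GFP sample. The ranges overlapped slightly in intensity, while at every spot position the A-CEBP reading was the lower one. The mean level was 1.96 in the A-CEBP sample and 2.18 in the GFP sample, a difference of -0.22 ± 0.20, or 1.16-fold lower, with an SD of 0.06 over the 8 spots. With all 10 spots it was -0.21, and it came to -0.00 with spike-in scaling, a shift about as large as the difference itself. Ptgs1, the constitutive enzyme, read 6623 on the A-CEBP array and 5616 on the GFP array, with levels of 2.88 (A-CEBP) and 2.69 (GFP), a difference of 0.18 ± 0.20.

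**Figure D2:**
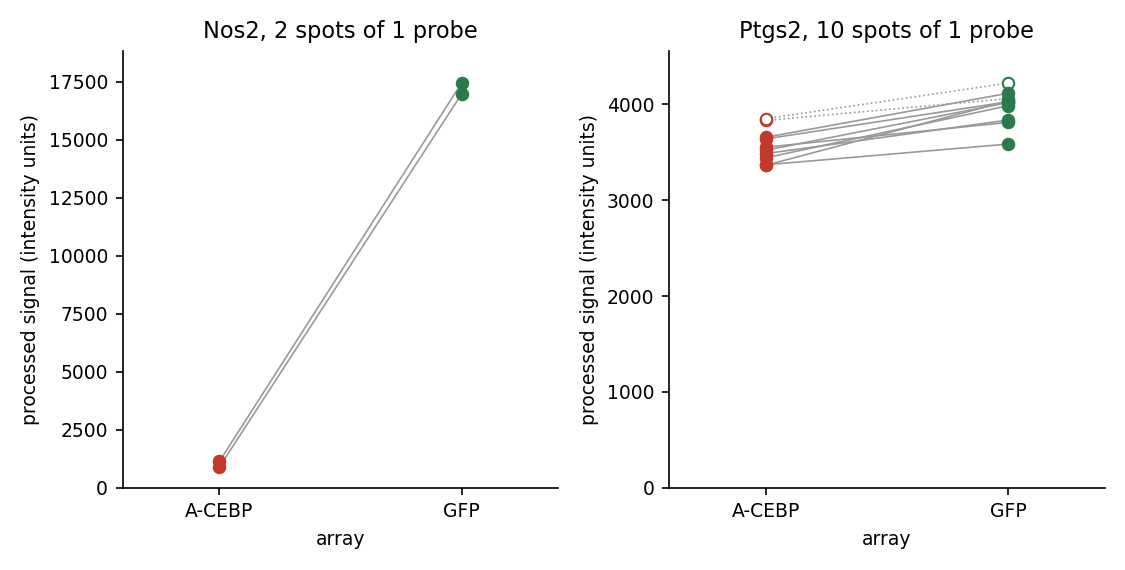
Processed signal of every spot of the Nos2 probe (left) and the Ptgs2 probe (right) on the A-CEBP and GFP arrays, with lines joining the same spot position and the axes starting at 0. Open points and dotted lines are the 2 Ptgs2 spots left out for an outlier mark. The Nos2 spots fall apart into a low pair in the A-CEBP sample and a high pair in the GFP sample, whereas the Ptgs2 spots differ by little.

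The terminal synthases differed among themselves. Ptgis, which encodes prostacyclin synthase, read 44128 intensity units on the A-CEBP array and 16749 on the GFP array. Its level was 5.61 in the A-CEBP sample and 4.27 in the GFP sample, a difference of 1.34 ± 0.20, or 2.54-fold higher. This was the 47th most positive difference of 13860. In either direction, 195 genes (1.41%), Ptgis included, were at least as far apart. The Ptgis difference rests on 1 spot per array. The 8 neighbouring spots measured on both had a median difference of -0.06, between -0.25 and 0.78. Endothelial cells are known for prostacyclin synthesis. Of 8 endothelial markers 5 were measured on both arrays, 3 lower and 2 higher in the A-CEBP sample with a median difference of -0.00. Their linear levels summed to 9.75 in the A-CEBP sample and 9.93 in the GFP sample. Without the brightest probe, that of Kdr, they summed to 1.841 in the A-CEBP sample and 2.504 in the GFP sample. The differences of the 5 markers lay between -0.585 (Vwf) and 0.397 (Esam). Pecam1 was at -3.29 in the A-CEBP sample and -3.09 in the GFP sample. Cdh5 was not well above background on either array. What part endothelial markers have in the Ptgis difference was not tested.

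Ptges encodes the inducible, membrane-bound prostaglandin E synthase. Its brighter probe read 31608 units in the A-CEBP sample and 33736 in the GFP sample, a difference of -0.15 ± 0.20. Its dimmer probe read 283 in the A-CEBP sample and 391 in the GFP sample, a difference of -0.52 ± 0.21, so the probes disagreed by more than their usual spread on a gene that was under 1.5-fold lower by either. Ptges2, the other membrane-associated synthase of prostaglandin E, read 2613 in the A-CEBP sample and 2771 in the GFP sample, a difference of -0.14 ± 0.20. With spike-in scaling both turned slightly positive, Ptges to 0.07 and Ptges2 to 0.08. Ptgds, the lipocalin-type synthase of prostaglandin D, read 747 in the A-CEBP sample and 636 in the GFP sample, a difference of 0.18 ± 0.20.

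Hpgd, whose enzyme oxidises and inactivates prostaglandins, was lower in the A-CEBP sample with both of its probes. The brighter one read 2263 units in the A-CEBP sample and 3738 in the GFP sample, a difference of -0.78 ± 0.20, or 1.72-fold lower. The other read 1235 in the A-CEBP sample and 1820 in the GFP sample, a difference of -0.61 ± 0.20, or 1.53-fold lower. By its brighter probe Hpgd was among the 2.61% of genes with the most negative differences. It was lower under all 10 alternatives that gave it a value, by 1.48-fold to 1.78-fold, and at least 2-fold lower under none.

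**Figure D3:**
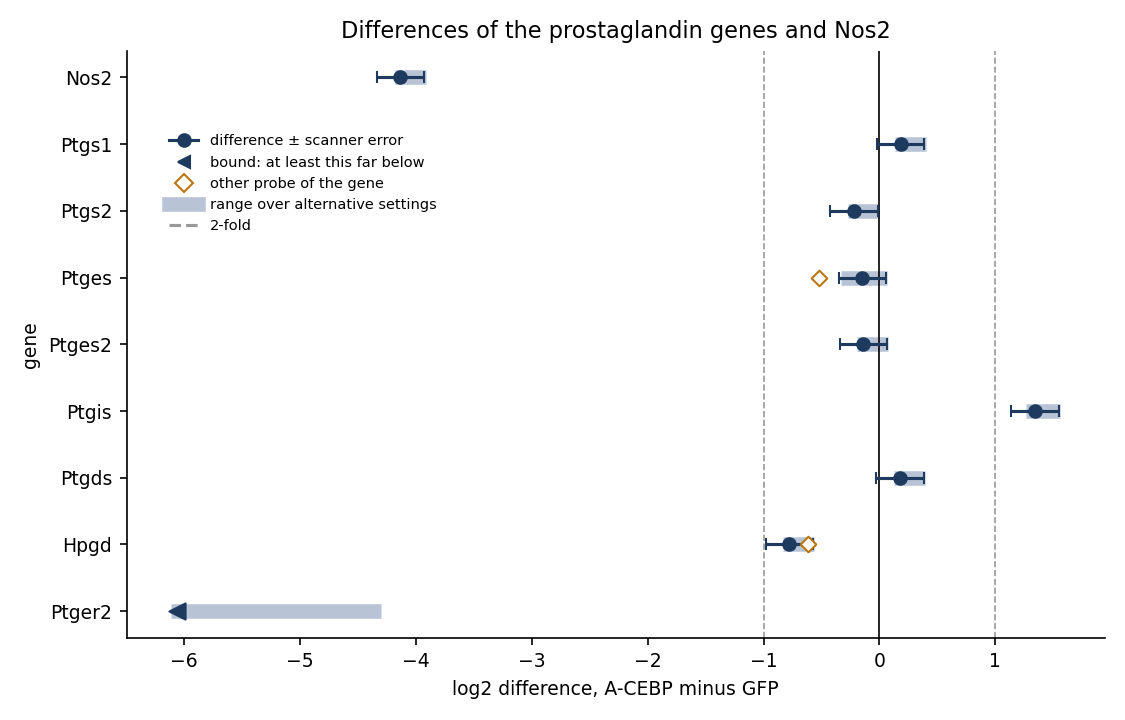
Log2 difference (A-CEBP minus GFP) of each gene that was well above background on at least 1 array, with the scanner error as bars, other probes as diamonds, and the range over alternative processing settings as a pale band; for Ptger2 the triangle is a bound, the difference being at least that far below 0. Nos2, at -4.13, and the Ptger2 bound, at -6.06, lie far from the rest, Ptgis lies past the upper 2-fold line and the other genes lie between the lines.

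Ptger2 encodes EP2, a prostaglandin E receptor that raises cAMP. Its single spot read 6.39 intensity units on the A-CEBP array, where it was not well above background, and 1596 on the GFP array. Before background subtraction the spot's median pixel was 76.0 in the A-CEBP sample, against 1744 in the GFP sample. The 308 negative control spots had a median of 67.5 on the A-CEBP array, with a 95th percentile of 79.0, so that the A-CEBP reading lay within their range, and a median of 81.0 on the GFP array. The level was 0.88 in the GFP sample, and the lowest level on the A-CEBP array of any probe past the background mark was -5.19, which gives a bound of at least 66.9-fold lower in the A-CEBP sample. This bound takes no account of error in the dim reading, and came to at least 19.7-fold with normexp background. It was the 6th largest of the 171 genes seen in the GFP sample only. A bound of at least 2-fold was reached by 97 of 14033 genes seen in the GFP sample (0.691%). The 8 spots around it measured on both arrays differed by a median of 0.04, between -0.27 and 0.39.

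Ptger4, the gene of the other cAMP-raising receptor, EP4, read 15.8 units in the A-CEBP sample and 14.6 in the GFP sample and was not well above background on either array, so no fold is given. Among the other prostanoid receptors and associated genes, 8 of 11 were measured on both arrays and none was 2-fold apart, with a median of 0.38 that turned to -0.17 without the filter on dim probes. The EP1 and prostaglandin F receptor genes Ptger1 and Ptgfr differed by -0.17 and -0.43, and Ptger1 turned to 0.04 with spike-in scaling, and the EP3 gene Ptger3 was not well above background on either array. Ptgir, the prostacyclin receptor gene, passed the background mark on the GFP array alone, at -3.65, with a bound of at least 2.89-fold lower in the A-CEBP sample, or 1.74-fold with normexp background. Ptgir thus lay on the other side of 0 from Ptgis, whose product it binds.

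RefSeq promoter windows were at hand for Ptgs1, Ptgs2, Ptges, Ptges2, Ptgds, Hpgd, Ptger2 and Ptger4 (8 of the 10 genes; not for Nos2 and Ptgis). The 250 bases before the annotated start are printed for Ptger2, far lower in the A-CEBP sample, and for Ptgs2, nearly level there. They are given 5′ to 3′ on the gene's strand with coordinates of build GRCm38.p6, and capitals mark each match, on either strand, to TTNCNNAA, a loose form of the C/EBP motif.
Ptger2, chr14:44987861-44988110, plus strand: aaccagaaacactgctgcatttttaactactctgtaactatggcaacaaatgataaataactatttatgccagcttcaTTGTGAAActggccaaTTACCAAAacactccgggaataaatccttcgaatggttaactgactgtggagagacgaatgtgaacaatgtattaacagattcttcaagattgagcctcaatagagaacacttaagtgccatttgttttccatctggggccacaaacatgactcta
Ptgs2, chr1:150099781-150100030, plus strand: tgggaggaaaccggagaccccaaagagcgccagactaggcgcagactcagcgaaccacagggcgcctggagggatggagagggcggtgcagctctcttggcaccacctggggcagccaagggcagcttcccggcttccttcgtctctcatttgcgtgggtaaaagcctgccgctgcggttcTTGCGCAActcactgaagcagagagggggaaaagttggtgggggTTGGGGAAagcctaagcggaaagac
Ptger2 had matches beginning 172 and 156 bases before the start, and Ptgs2 had matches beginning 69 and 25 bases before it, without overlap in either. The same letters stand in 36.9% of 32841 promoter windows of this length, and in those of Ptges, Ptges2, Ptgds and Hpgd as well, but not of Ptgs1 or Ptger4. Of the other motifs searched on both strands, NF-kB (GGGA and CC with any 4 bases between them, in 17.6% of windows), the cAMP response element core (ACGTCA, 6.47%), the STAT site known as GAS (TTCNNNGAA, 7.02%) and the TATA box (TATAAA, 12.4%) had no match in any of the 8 windows, and the E-box CACGTG (6.02%) had 1, in Ptges2. Both the far lower and the nearly level gene thus held the C/EBP letters, and a match is not a bound site. Bases outside these windows were not searched, so a motif without a match may lie just outside them.

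The other genes of arachidonate release and prostanoid metabolism held 1 that was 2-fold apart. Of 12 phospholipase A2 and arachidonate genes measured on both arrays, none was 2-fold apart (median -0.07), and Pla2g4a, the cytosolic phospholipase that releases arachidonate, differed by -0.23 ± 0.20. Of 14 other synthases, transporters and breakdown enzymes, none was higher by 2-fold or more (median 0.04). Lower by that size was 1, against 1.71% of all genes. That gene was Akr1c18, an aldo-keto reductase best known for breaking down progesterone, which was at -3.22 in the A-CEBP sample and -2.12 in the GFP sample, 2.14-fold lower, and fell short of 2-fold with spike-in scaling and with normexp background. Ptges3, the cytosolic prostaglandin E synthase and a cochaperone, differed by -0.12, turning to 0.10 with spike-in scaling. The prostaglandin uptake transporter gene Slco2a1 differed by -0.25, and Hpgds, the other prostaglandin D synthase, was not well above background on either array.

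Genes known to induce Ptgs2 and Nos2, or to act on them, were lower in part. Of 17 with a level on both arrays, 7 were lower by 2-fold or more and none was higher by that size, with a median of -0.29. Over all genes, 1.71% were lower and 1.25% higher by that size. Il6, the gene of a cytokine of inflamed joints, was 17.3-fold lower, at -1.93 in the A-CEBP sample and 2.19 in the GFP sample, a size close to that of Nos2. Tlr2, a receptor for bacterial lipoproteins, was 5.15-fold lower, the C/EBP factor gene Cebpd 3.70-fold lower, and Nfkbia, an inhibitor and target of NF-kB, 2.76-fold lower. The interleukin-1 receptor gene Il1r1 differed by 0.31, and Il1b, Tnf and Ifng were not well above background on either array. Tnf and Ifng are named after their values were seen, as is Slc7a1.

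The last list holds genes of the cAMP pathway, through which EP2 signals, and genes that cAMP is known to induce. Of 19 with a level on both arrays, none was higher by 2-fold or more (median 0.03). Lower by that size was 1, against 1.71% of all genes. It was Ereg, which encodes the growth factor epiregulin, 3.47-fold lower, at -2.54 in the A-CEBP sample and -0.75 in the GFP sample.

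**Figure D4:**
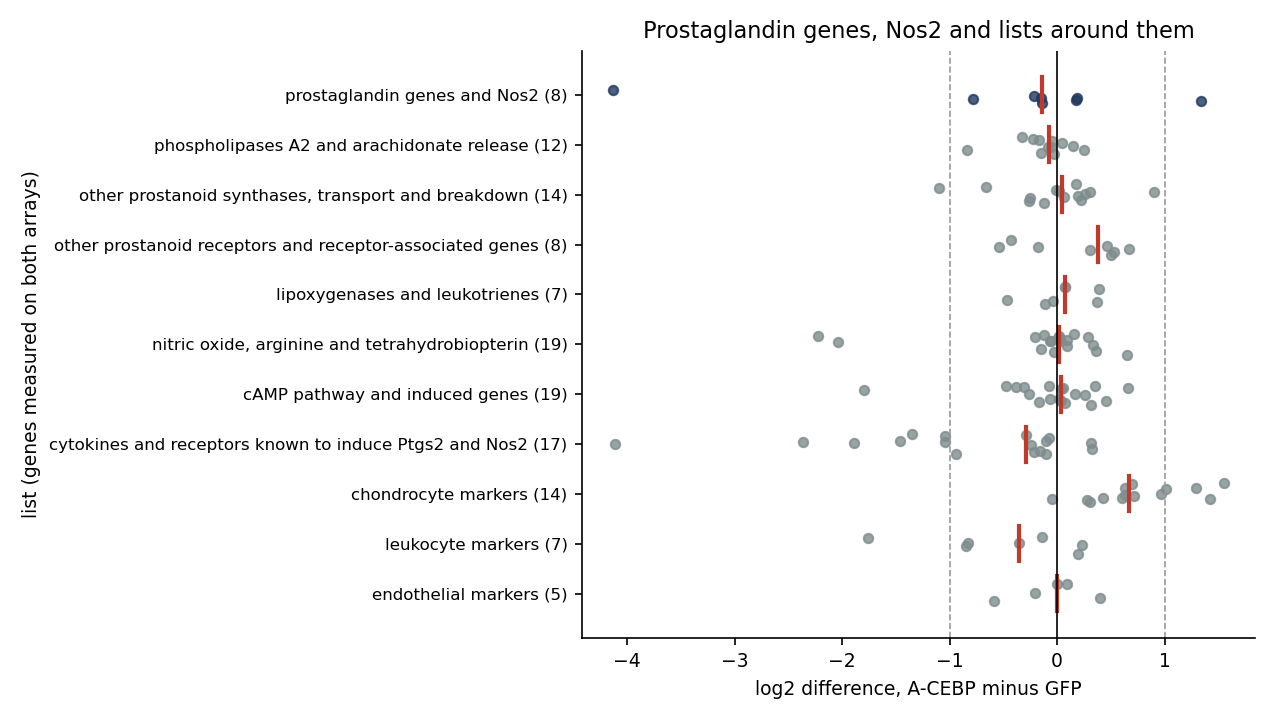
Log2 difference (A-CEBP minus GFP) of the prostaglandin genes and Nos2 (top row) and of the lists around them, 1 point per gene measured on both arrays, with the number of genes in brackets, red bars at the median and dashed lines at 2-fold. Nos2, at -4.13, and Il6, at -4.11, stand farthest to the left, and chondrocyte markers lie mostly to the right, with a median of 0.67.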

How the data were processed

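Per the labels' protocols, 0.1 µg of total RNA per sample was labelled with Cy3. The scanner files the authors deposited hold spot intensity on a linear scale, background-subtracted and detrended within each array, per the file headers, by Agilent Feature Extraction 10.10.1.1 (submitters' processing notes). The authors' deposited value table holds the same intensity times 1.15 (A-CEBP) or 1.24 (GFP).

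Here, log2 was taken and each array's 75th percentile subtracted. Control spots and 293 outlier spots were left out. The spots of 1 probe were averaged, and it was taken as well above background where over 50% of its spots carried that mark, and a gene was represented by its probe of highest mean level among those so marked on both arrays. Genes so marked on 1 array got a bound, the bright level over the higher of the dim reading and the lowest level well above background there. Of 55671 probes, 27229 (48.9%) matched 1 gene by transcript accession (RefSeq, GRCm38.p6, names only; the array design used mm9). The steps were tested on simulated data. Python 3.11.15, R 4.3.3 and limma 3.58.1 (quantile, cyclic loess, normexp) were used.

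The genes and lists were chosen with earlier results of these data known. All 10 genes are named, with list members at least 2-fold apart or with such a bound (up to 4 a list) and a fixed set of names. No test between groups was possible. Alternatives changed the scaling, background correction, value table, filter, probe choice, outlier marks and size rule.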

Additional observations from a re-analysis of the deposited data

How the results depend on the processing

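Nos2 was at least 2-fold lower (15.1-fold to 18.2-fold) and Ptgis at least 2-fold higher (2.41-fold to 2.95-fold) under all 10 alternatives that gave them a value. With spike-in scaling, the median of the 8 genes measured on both arrays was 0.073 in place of -0.14, and 339 genes in all were at least 2-fold higher, with all 8 genes moved by more than the SD between probes, as that scaling shifts every difference alike. Under none of the other 9 alternatives did any of the 8 move by that much. With normexp background on the median signals, chosen after seeing the files, 98 genes were at least 2-fold higher; the cause was not tested. Removing the filter on dim probes raised the genes tested from 13860 to 20657. Of the 10 genes, 2 (Nos2 and Ptger2) were then at least 2-fold lower, with 886 genes lower and 601 higher in all. With a 1.5-fold rule 2 of the 8 genes (Nos2 and Hpgd) were lower, with 530 and 649 of 13860 genes in all. Normexp on mean signals was not run, since the scanner files used here have no such column. No paired analysis was possible because each group held 1 sample, and no sample could be left out.

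With 1 array per group, the transgene and any other feature of its line or culture cannot be told apart. Ptgis, Ptger2, Ptgs1, Ptges2, Ptgds and Ptger4 each rest on 1 spot per array, and a signal near background, as for Ptger2, Ptger4 and Arg2, limits the size that can be given.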

Other observations

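Arachidonic acid also feeds the lipoxygenases, whose products include leukotrienes. Of 7 such genes measured on both arrays none was 2-fold apart, with a median of 0.07. Alox5, the 5-lipoxygenase gene that starts leukotriene synthesis, was not well above background on either array, while its partner Alox5ap was at -2.42 in the A-CEBP sample and -1.95 in the GFP sample, a difference of -0.46. Lta4h, the leukotriene A4 hydrolase gene, differed by 0.07. Tbxas1, the thromboxane synthase gene, was at 0.85 in the A-CEBP sample and -0.04 in the GFP sample, 1.86-fold higher, and past 2-fold with spike-in scaling only. The secreted phospholipase gene Pla2g2e was at 0.16 in the A-CEBP sample and 0.99 in the GFP sample, 1.78-fold lower. These genes are named after their values were seen.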
